A study of Homo sapiens with 6 samples.

Results

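The CD-numbered leukocyte surface antigens are proteins of the cell surface that were first told apart by panels of monoclonal antibodies and then given a cluster of differentiation number. The 69 genes described here were taken by name: a symbol made of CD, a number and at most a short suffix, such as CD4, CD37 or CD300LB, with the adaptor genes CD2AP and CD2BP2 and antisense genes left out. They are 69 of the 14884 genes named by at least 1 probe set that carries a single gene symbol, and 68 of them are protein-coding. The exception is CD99P1, a transcribed pseudogene of CD99. Because the choice was by name, not every protein-coding member encodes a surface antigen: CD5L, for one, encodes a secreted protein. The expression measurements come from THP-1, an established human acute monocytic leukaemia line. The RKIP shRNA group was THP-1 transduced with a psi-LVRU6GP lentiviral vector that carries a short hairpin against RKIP, and the control group was THP-1 transduced with the empty vector. Both groups were selected and kept in puromycin at 1.5 µg/mL, so they share the vector and the drug, and each has 3 Affymetrix Human Gene 2.0 ST arrays described as biological replicates. The labels give 1 hairpin construct against an empty vector rather than a non-targeting hairpin, and they do not say whether the lines were pools or clones or whether the replicates were separate transductions. The spread behind each p-value is thus that among these arrays alone and may be technical.

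Surface antigens of leukocytes fall into families that work in different ways. Tetraspanins organise other membrane proteins into domains and sort them between the surface and endosomes. Immunoglobulin-like receptors of the CD300 and SLAM families send activating or inhibitory signals through adaptors and phosphatases, and B7 proteins such as CD86 deliver the second signal to T cells. In monocytes, scavenger and lectin-like receptors take up particles and lipids, while mucin-like and hyaluronan-binding proteins govern adhesion. RKIP, the Raf kinase inhibitor protein encoded by PEBP1, restrains signalling from Raf to MEK and ERK.

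All values are the deposited log2 expression values, changes are RKIP shRNA minus control on that scale, errors of changes are standard errors (SE) from limma, and calls were made where the p adjusted over all 14884 genes by Benjamini-Hochberg was under 0.05 (limma). Array medians lay between 4.06 and 4.10, and correlations across genes, which are no replicates, were 0.994 to 0.996 within and 0.987 to 0.988 between the groups. A gene whose group mean was below the median of all rows, 4.08, is called dim, since background compresses the changes of such genes. PEBP1 averaged 8.22 ± 0.04 in RKIP shRNA and 9.68 ± 0.14 in control arrays (SD, n = 3 each), which is 36.4% of the control level (limma adjusted p = 0.000228). By an exact two-sided permutation test its p was 0.10, and 3 arrays against 3 can give no smaller one.

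Of the 69 CD-numbered genes, 13 rose in RKIP shRNA cells, 9 fell and 47 did not pass the test. The 22 called genes are 31.9% of the members, beside 20.2% of all genes called in either direction, 10.0% called higher and 10.2% called lower. The largest rises were in CD300C and CD300LB, activating receptors of myeloid cells, and the largest falls in CD48, a ligand of natural killer and T cell receptors, and CD37, a leukocyte tetraspanin. The deposited values of these 4 genes differed by at least 2-fold, a size that 1.26% of all genes reached together with a call, and the CD300LB difference was measured from a dim control level. The median change of the members was 0.09 and their median absolute change 0.22, against 0.02 and 0.15 over all genes. The RKIP shRNA and control arrays did not overlap for 28 members, or 40.6%, which is close to the 37.9% of all genes for which they did not overlap. The RNA came from whole cultures, so fewer cells carrying an antigen and less of its RNA per cell cannot be told apart.

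The share called differed with brightness. Among the 43 members whose 6-array mean was at or above the median of all rows, 18 were called, or 41.9%, where 29.2% of all genes of that brightness were called. Among the 26 members below it 4 were called, or 15.4%, where 3.66% of such genes were called. Of the 24 members that were dim in both groups, 1 rose and 2 fell. The families described below are small, and their shares called stand beside the 20.2% of all genes. These shares were 36.4% of adhesion proteins and mucins and 25% of T cell antigens. They were 18.2% of pattern, scavenger and lectin-like receptors and 15.4% of co-stimulatory and checkpoint genes. In every fit that left out 1 array 16 of the 22 calls held, and the exceptions were CD1A, CD24, CD4, CD5, CD5L and CD99, given below with their genes.

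**Figure D1:**
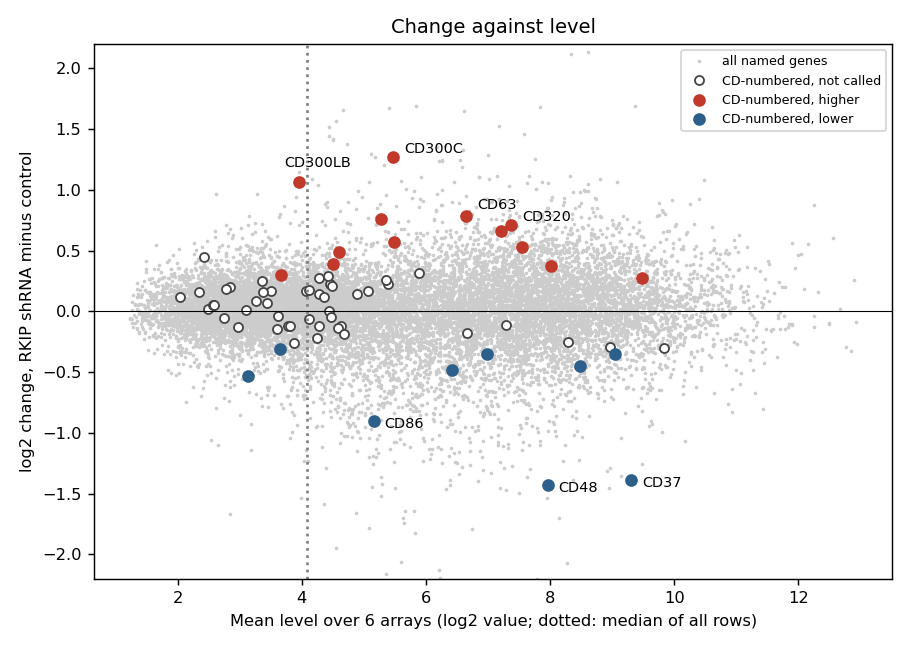
Change in RKIP shRNA against control arrays (log2, y axis) plotted against the mean level over 6 arrays (log2, x axis) for all named genes (grey points) and the 69 CD-numbered genes (red higher, blue lower, open circles not called). CD48 and CD37 lie lowest, at -1.43 and -1.38, CD300C and CD300LB highest, at 1.27 and 1.07, and 12 other genes lie beyond the y axis limits of 2.2 in either direction.

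Tetraspanins, proteins with 4 membrane-spanning segments, moved in both directions: of 7 measured, 3 rose, 2 fell and 2 did not pass. That is 71.4% called, beside 20.2% of all genes and 29.2% of those at or above the median of all rows. CD37, which is largely restricted to leukocytes and is best known from B cells, had 8.56, 8.76 and 8.52 in RKIP shRNA arrays, against 9.94, 9.97 and 10.07 in control arrays. It fell by 1.38 (SE 0.09, limma adjusted p = 0.000245), to 38.3% of the control level, and every RKIP shRNA array was more than a log2 unit below every control array. CD53, the other leukocyte-restricted tetraspanin, had 8.86, 8.80 and 8.93 in RKIP shRNA arrays, against 9.16, 9.23 and 9.25 in control arrays. The groups lay apart by less than for CD37, and the change was -0.35 (SE 0.07, limma adjusted p = 0.0124).

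Of the other tetraspanins, 3 rose and 2 did not pass. CD63, a resident of late endosomes, lysosome-related granules and exosomes, had 7.10, 6.99 and 7.05 in RKIP shRNA arrays, against 6.19, 6.36 and 6.22 in control arrays. It was higher in every RKIP shRNA array and rose by 0.79, or 1.72-fold (SE 0.08, limma adjusted p = 0.000926). CD82, known as a suppressor of metastasis, had 5.64, 5.57 and 5.76 in RKIP shRNA arrays, against 4.87, 4.77 and 5.04 in control arrays. The groups did not overlap, and the rise was 0.76, or 1.70-fold (SE 0.09, limma adjusted p = 0.00229). CD151, a partner of laminin-binding integrins, had 7.88, 7.90 and 7.64 in RKIP shRNA arrays, against 7.23, 7.36 and 7.23 in control arrays. RKIP shRNA replicate 3 was the lowest of its group and still above every control array, and the rise was 0.53 (SE 0.09, limma adjusted p = 0.00771). CD81, a component of the B cell co-receptor, had 5.89, 6.17 and 6.07 in RKIP shRNA arrays, against 5.49, 5.99 and 5.69 in control arrays. These groups overlapped, and the change of 0.32 had a 95% interval from -0.01 to 0.65 (limma adjusted p = 0.165). CD9, the remaining tetraspanin of the set, was dim in both groups and changed by 0.07.

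**Figure D2:**
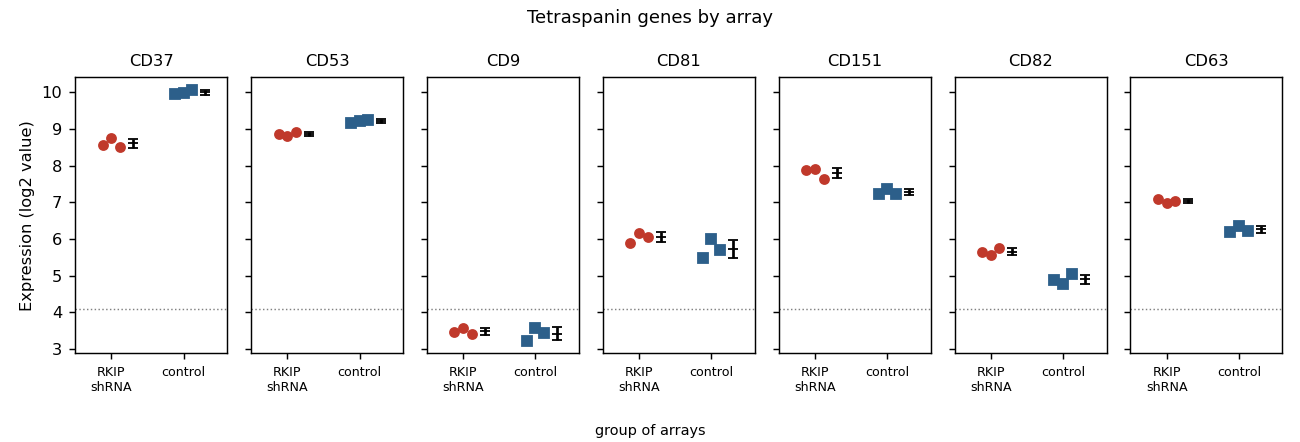
Expression of the 7 tetraspanin genes (log2 value, y axis) in each RKIP shRNA array (red circles) and each control array (blue squares), with the group mean and SD in black and the median of all rows dotted. CD37 and CD53 lie lower in RKIP shRNA arrays, CD151, CD82 and CD63 lie higher, and the groups overlap for CD81 and CD9.

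The sequences before the starts of 3 called tetraspanin genes are shown to place a gene that fell beside genes that rose. They are the 200 bases upstream of the first start listed for each gene by RefSeq on GRCh38.p14, read along the gene's strand, and were chosen after the values were seen. CD53 lies on the plus strand at chr1:110871010-110871209, CD63 on the minus strand at chr12:55729010-55729209 and CD82 on the plus strand at chr11:44565463-44565662. Capitals mark GGGCGG, the GC box, and TATAAA, the TATA box, searched on both strands.
CD53: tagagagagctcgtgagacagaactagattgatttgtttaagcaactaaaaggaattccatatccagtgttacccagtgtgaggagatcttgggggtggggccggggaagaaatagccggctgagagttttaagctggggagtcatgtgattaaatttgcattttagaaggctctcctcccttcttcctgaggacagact
CD63: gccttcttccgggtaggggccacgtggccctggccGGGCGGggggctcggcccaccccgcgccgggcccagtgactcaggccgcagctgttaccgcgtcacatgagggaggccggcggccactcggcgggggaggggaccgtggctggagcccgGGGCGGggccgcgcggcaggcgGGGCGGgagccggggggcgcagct
CD82: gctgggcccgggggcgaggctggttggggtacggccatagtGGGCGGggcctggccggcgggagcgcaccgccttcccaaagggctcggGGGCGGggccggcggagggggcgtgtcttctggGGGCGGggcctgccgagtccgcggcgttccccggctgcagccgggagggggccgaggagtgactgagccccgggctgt
The CD63 and CD82 windows are 81% and 79% G and C and hold 3 GC boxes each, whereas the CD53 window is 46% G and C and holds neither motif, beside a median of 58.5% over 27305 promoters. A GC box stood within 250 bases upstream of 42.3% of all promoters. Among members with a listed promoter it stood in 4 of the 9 that rose, 2 of the 6 that fell and 7 of the 34 not called. That is 13 of 49 in all. The printed windows thus do not stand for their direction. CD44 and CD24 fell and had a GC box, while CD52, CD68, CD83, CD1A and CD300LB rose and had none. A TATA box stood in 11.1% of all promoters, in 2 of the 9 that rose, 0 of the 6 that fell and 3 of the 34 not called. In all, 49 of the 69 members had an entry, and CD37 and CD151 had none. The cores bound by PU.1 and by RUNX factors and the AP-1 motif were also searched. They stood in 19, 9 and 6 of these 49, each a larger share than the 23.4%, 10.9% and 6.60% of all promoters. The PU.1 core stood in 3 of the 9 that rose, 2 of the 6 that fell and 14 of the 34 not called. For the RUNX core these counts were 1, 1 and 7, and for AP-1 they were 2, 0 and 4. Why the shares were larger was not tested. A match is a string of letters and not a known binding site.

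Both CD-numbered genes of the SLAM group passed the test, in opposite directions. SLAM genes with another symbol, SLAMF1, SLAMF7 and LY9, were dim in both groups and did not pass. Their changes were -0.24, 0.24 and -0.19 (limma adjusted p = 0.229, 0.28 and 0.262). CD48, a lipid-anchored protein that binds CD244 on natural killer cells and CD2 on T cells, had 7.27, 7.18 and 7.29 in RKIP shRNA arrays, against 8.63, 8.71 and 8.70 in control arrays. It fell by 1.43 (SE 0.07, limma adjusted p = 0.00013), to 37.1% of the control level, with no overlap between the groups. CD84, a SLAM receptor that binds another copy of itself on a neighbouring cell, had 5.88, 5.76 and 5.66 in RKIP shRNA arrays, against 5.25, 5.33 and 5.02 in control arrays. It was higher in all 3 RKIP shRNA arrays and rose by 0.57 (SE 0.11, limma adjusted p = 0.0101). The 200 bases before the CD48 start, on the minus strand of GRCh38.p14 at chr1:160711823-160712022, are shown because CD48 fell most. They hold neither a GC box nor a TATA box and are 42.5% G and C.
CD48: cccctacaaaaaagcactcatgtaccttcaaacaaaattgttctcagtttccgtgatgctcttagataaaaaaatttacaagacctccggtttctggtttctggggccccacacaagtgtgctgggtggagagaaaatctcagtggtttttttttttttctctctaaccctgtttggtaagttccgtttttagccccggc

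Of 7 measured CD300 genes, a family of paired activating and inhibitory receptors of myeloid cells, 2 rose and 5 did not pass. CD300C, an activating member, had 6.170, 6.002 and 6.141 in RKIP shRNA arrays, against 5.061, 4.605 and 4.834 in control arrays. It rose by 1.27, or 2.41-fold (SE 0.12, limma adjusted p = 0.000926), and the groups were separated by close to a log2 unit. CD300LB, an activating receptor that signals through the adaptor TYROBP, had 4.42, 4.68 and 4.34 in RKIP shRNA arrays, against 3.57, 3.59 and 3.09 in control arrays. It was dim in all control arrays and above the median of all rows in all RKIP shRNA arrays, and its deposited values differed by 1.07 (SE 0.16, limma adjusted p = 0.00442). The control level is not known to lie above background, so the size of the rise in RNA is not fixed by these values. TYROBP itself rose by 2.37, with 8.77 ± 0.10 in RKIP shRNA and 6.39 ± 0.30 in control arrays (SD, n = 3 each, limma adjusted p = 0.000245). The inhibitory receptors of the family did not pass: CD300A stood at 6.58 ± 0.10 in RKIP shRNA and 6.75 ± 0.30 in control arrays, a change of -0.18 with a 95% interval from -0.53 to 0.18 (limma adjusted p = 0.499). CD300LF stood at 5.50 ± 0.14 in RKIP shRNA and 5.28 ± 0.09 in control arrays, and its arrays did not overlap (change 0.22, limma adjusted p = 0.153). Not passing was not particular to these inhibitory receptors. CD300E, CD300LD and CD300LG changed by -0.06, -0.18 and 0.003 and did not pass either (limma adjusted p = 0.783, 0.525 and 0.989). CD300 genes resemble one another in sequence, and how far their probes share signal is not known here. The window before the CD300LB start, on the minus strand of GRCh38.p14 at chr17:74531476-74531675, is shown because it is the only printed promoter with a TATA box, marked in capitals.
CD300LB: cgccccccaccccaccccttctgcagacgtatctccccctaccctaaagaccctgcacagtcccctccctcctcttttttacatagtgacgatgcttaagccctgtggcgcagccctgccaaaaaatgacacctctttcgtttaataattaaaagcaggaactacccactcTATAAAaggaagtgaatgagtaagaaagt

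Among 13 co-stimulatory and checkpoint genes, 1 rose, 1 fell and 11 did not pass. CD83, a marker of activated dendritic cells and monocytes, had 7.61, 7.50 and 7.51 in RKIP shRNA arrays, against 6.78, 7.03 and 6.83 in control arrays. It rose by 0.66, or 1.58-fold (SE 0.09, limma adjusted p = 0.00296). CD86, the B7 ligand of CD28 and CTLA4, had 4.46, 4.61 and 5.06 in RKIP shRNA arrays, against 5.48, 5.83 and 5.51 in control arrays. It was lower in every RKIP shRNA array and fell by 0.90 (SE 0.17, limma adjusted p = 0.0112), although RKIP shRNA replicate 3 lay closer to the control arrays than the other two did. The remaining genes of the group lay between -0.13 (CD96) and 0.21 (CD276), and 6 of the 13 were dim in both groups.

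Among 11 pattern, scavenger and lectin-like receptors, 1 rose, 1 fell and 9 did not pass, and 8 of the 11 were dim in both groups. CD68, a lysosomal glycoprotein used as a macrophage marker, had 8.24, 8.15 and 8.23 in RKIP shRNA arrays, against 7.85, 7.84 and 7.81 in control arrays. It rose by 0.37 (SE 0.06, limma adjusted p = 0.00761), and the gap between the groups was several times the spread within either. CD69, an early activation antigen of leukocytes, had 8.76, 8.72 and 8.98 in RKIP shRNA arrays, against 9.10, 9.10 and 9.15 in control arrays. The groups did not overlap, but the change of -0.30 (SE 0.09) just missed the threshold at a limma adjusted p of 0.0508, and without RKIP shRNA replicate 3 it passed at 0.0214. CD5L, a secreted scavenger protein of macrophages, was dim, with 3.39, 3.46 and 3.64 in RKIP shRNA arrays, against 3.78, 3.74 and 3.90 in control arrays. Its change of -0.31 was called at a limma adjusted p of 0.0488, and on leaving out 1 array it stayed called only without RKIP shRNA replicate 3 (0.0314), the other 5 fits giving 0.0862 to 0.144. CD14, the lipopolysaccharide co-receptor of monocytes, was named after its values were seen: it was dim in every array, from 2.47 to 3.00 in RKIP shRNA and from 2.75 to 2.79 in control arrays, and changed by -0.06.

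Among 11 adhesion proteins and mucins, 2 rose, 2 fell and 7 did not pass. CD44, the hyaluronan receptor, had 8.23, 8.22 and 8.34 in RKIP shRNA arrays, against 8.70, 8.74 and 8.69 in control arrays. It fell by 0.45 (SE 0.07, limma adjusted p = 0.00442), with every RKIP shRNA array below every control array. CD52, a short lipid-anchored glycoprotein of lymphocytes and monocytes, had 4.71, 4.93 and 4.89 in RKIP shRNA arrays, against 4.44, 4.25 and 4.37 in control arrays. It rose by 0.49 (SE 0.09, limma adjusted p = 0.00995). CD24, a mucin-like protein of immature and malignant cells, was dim, with 3.00, 2.65 and 2.97 in RKIP shRNA arrays, against 3.35, 3.18 and 3.69 in control arrays. Its change of -0.53 was the member call nearest the threshold (limma adjusted p = 0.0498), and it stayed called only without control replicate 2 (0.0444), the other fits that left out 1 array giving 0.0791 to 0.126. CD58, the ligand of CD2, stood at 8.17 ± 0.16 in RKIP shRNA and 8.42 ± 0.07 in control arrays (SD, n = 3 each). Its groups overlapped and the change of -0.25 did not pass (limma adjusted p = 0.124), but without RKIP shRNA replicate 3 it passed at 0.0401. CD99L2, a relative of CD99, stood at 7.23 ± 0.05 in RKIP shRNA and 7.34 ± 0.09 in control arrays and did not pass.

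CD99, which takes part in the passage of leukocytes through endothelium, and its pseudogene CD99P1 went opposite ways. CD99 had 9.67, 9.60 and 9.58 in RKIP shRNA arrays, against 9.29, 9.36 and 9.37 in control arrays, a rise of 0.28 (SE 0.07, limma adjusted p = 0.0258). CD99P1 had 6.33, 6.01 and 6.20 in RKIP shRNA arrays, against 6.70, 6.66 and 6.63 in control arrays, and fell by 0.49 (SE 0.09, limma adjusted p = 0.0116). The groups did not overlap for either gene. The pseudogene derives from CD99 and how far the 2 probe sets share signal is not known here, so the assignment of each value is uncertain. The call of CD99 held only without RKIP shRNA replicate 3 (limma adjusted p = 0.0495), the other fits that left out 1 array giving 0.0565 to 0.0917, while that of CD99P1 held in all 6.

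CD320, the receptor through which cells take up vitamin B12 bound to transcobalamin, had 7.68, 7.79 and 7.72 in RKIP shRNA arrays, against 6.88, 7.15 and 7.03 in control arrays. It rose by 0.71, or 1.64-fold (SE 0.09, limma adjusted p = 0.0023), with a wide gap between the groups. CD47, the self-recognition signal that phagocytes read through SIRPA, had 9.71, 9.52 and 9.80 in RKIP shRNA arrays, against 10.05, 9.93 and 9.96 in control arrays. It was lower in every RKIP shRNA array, but its change of -0.31 (SE 0.09) did not pass (limma adjusted p = 0.056), and without RKIP shRNA replicate 3 it did, at 0.046.

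**Figure D3:**
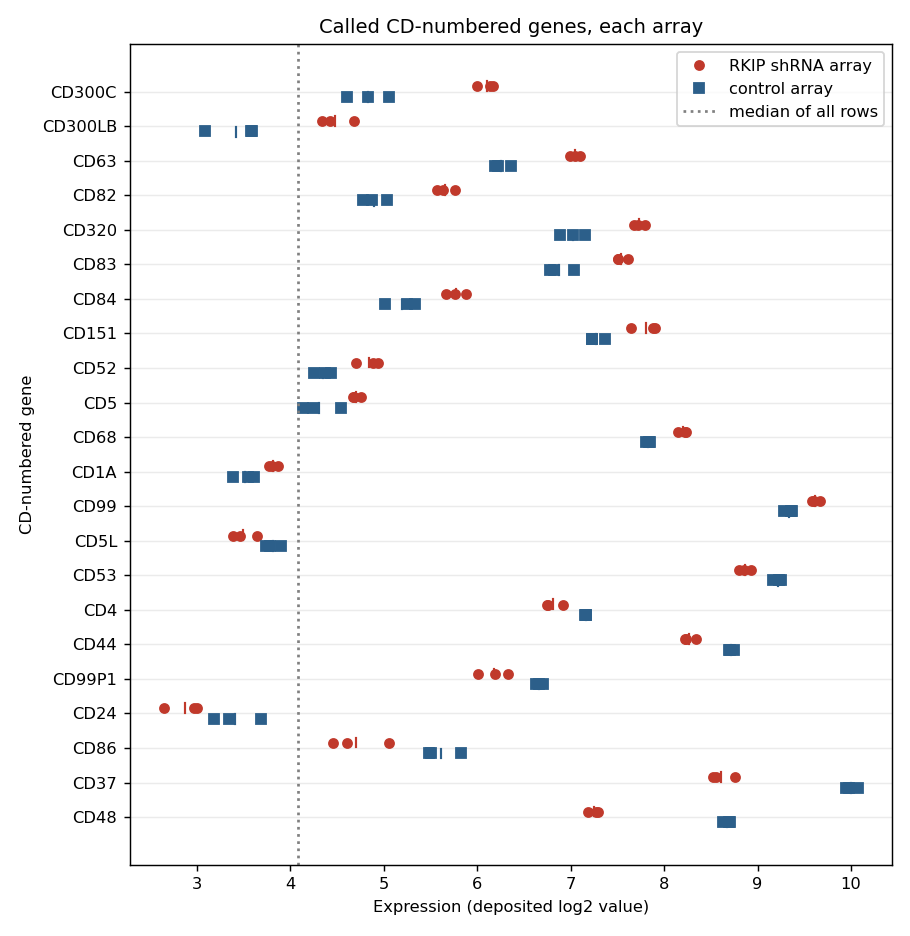
Expression (log2 value, x axis) of the 22 called CD-numbered genes in each RKIP shRNA array (red circles) and each control array (blue squares), with group means as short vertical lines and the median of all rows dotted. Genes are ordered by change, from CD300C at 1.27 at the top to CD48 at -1.43 at the bottom, and the 2 groups do not overlap for any of the 22.

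Among 8 antigens of T cells, 1 rose, 1 fell and 6 did not pass. CD4, the co-receptor for MHC class II that monocytes also carry, had 6.75, 6.92 and 6.76 in RKIP shRNA arrays, against 7.16 in each of the 3 control arrays. It fell by 0.35 (SE 0.07, limma adjusted p = 0.0151), and lost its call without control replicate 2 (0.0543), without control replicate 3 (0.0511) and without RKIP shRNA replicate 1 (0.0588). CD5, a scavenger-like receptor of T cells and a B cell subset, had 4.67, 4.75 and 4.68 in RKIP shRNA arrays, against 4.14, 4.24 and 4.54 in control arrays. Its change of 0.39 was called at a limma adjusted p of 0.0486 and held only without control replicate 3 (0.0145), the other fits that left out 1 array giving 0.101 to 0.138. CD8A, a chain of the CD8 co-receptor, stood at 5.49 ± 0.29 in RKIP shRNA and 5.23 ± 0.21 in control arrays (SD, n = 3 each) and CD2 at 4.52 ± 0.02 and 4.66 ± 0.14. Neither passed (limma adjusted p = 0.341 and 0.34). A list of 10 T cell markers, of which 7 were measured and 3 are members here, summed to 30.9 to 31.8 in RKIP shRNA and 30.4 to 31.7 in control arrays (summed log2 values), ranges that overlap. None of the 7 was called by limma, and 1 had an unadjusted p under 0.05, beside 4806 of all 14884 genes.

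All 5 measured CD1 genes, whose products present lipids to T cells, had positive changes, but 4 of the 5 were dim in both groups and 1 was called. Changes were also positive for 8063 of all 14884 genes and for 15 of the 24 members dim in both groups. CD1A, a marker of Langerhans cells, had 3.80, 3.78 and 3.87 in RKIP shRNA arrays, against 3.55, 3.62 and 3.38 in control arrays. Its change of 0.30 (SE 0.08, limma adjusted p = 0.0436) was lost in all 6 fits that left out 1 array (0.0559 to 0.119). CD1B had 2.91, 1.92 and 3.12 in RKIP shRNA arrays, against 2.13, 2.31 and 2.16 in control arrays, so that RKIP shRNA replicate 2 lay below the control arrays and the other two above them. Its change of 0.45 was the largest of the members that did not pass (limma adjusted p = 0.351), and without RKIP shRNA replicate 2 it was 0.82 (limma adjusted p = 0.0072).

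**Figure D4:**
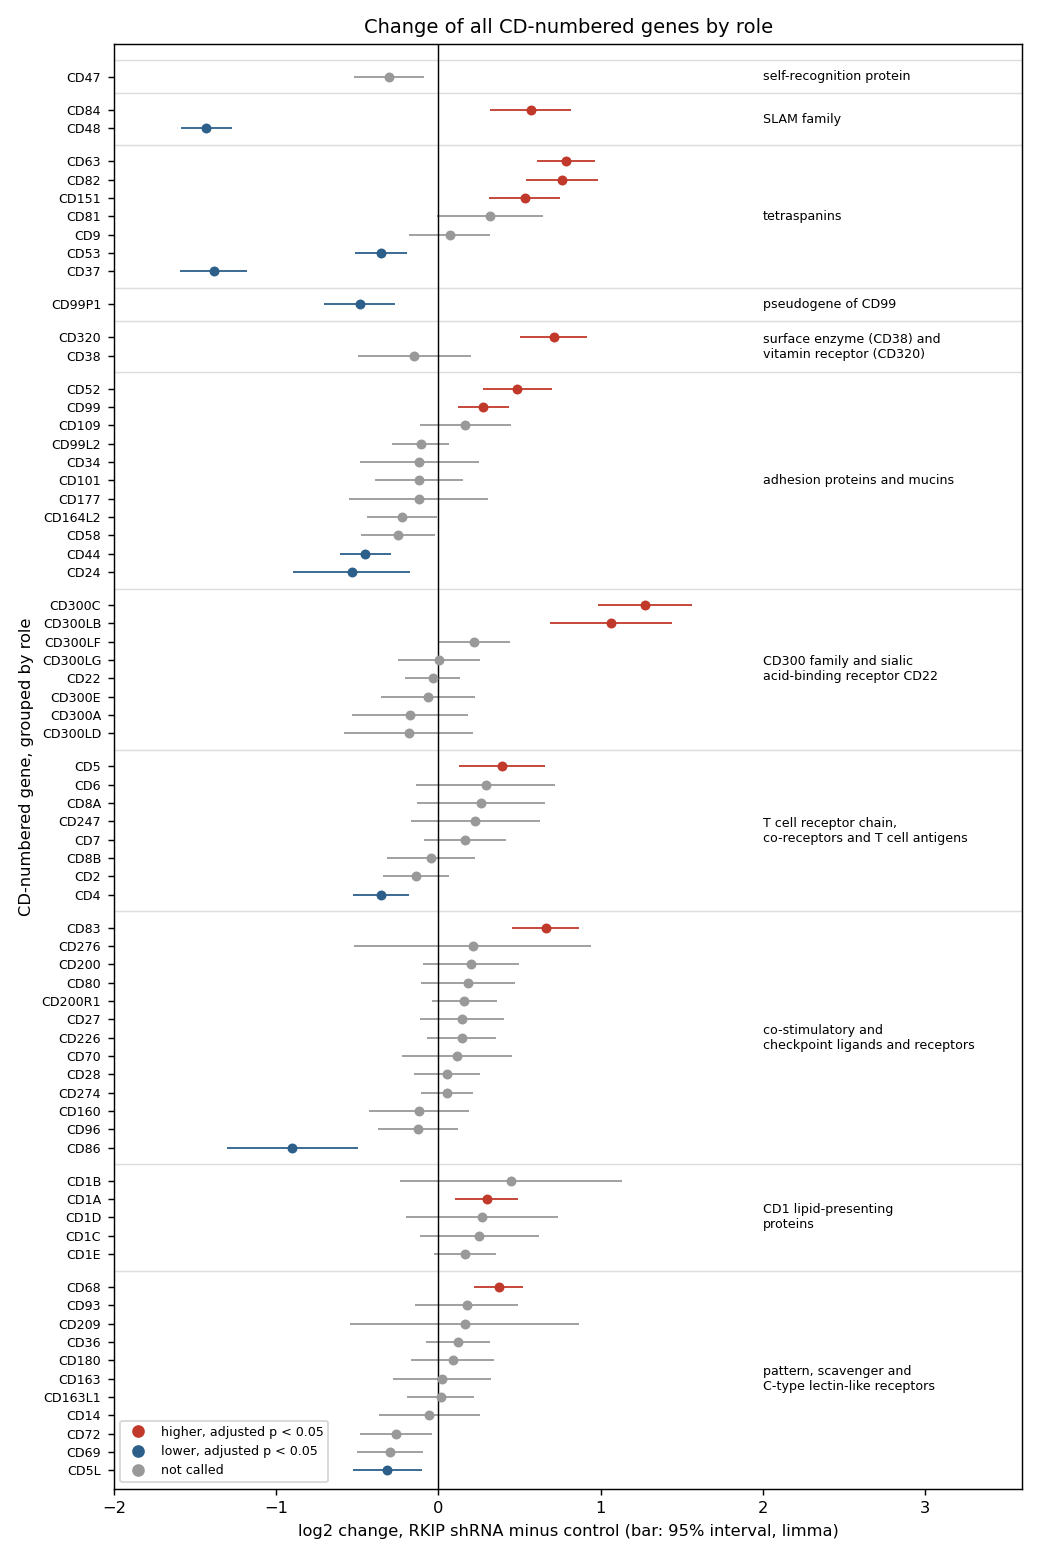
Change of each of the 69 CD-numbered genes, RKIP shRNA minus control (log2, x axis), with its 95% interval from limma and grouped by role (y axis). Called genes are red where higher and blue where lower, and the 47 grey genes were not called and lie between -0.31 and 0.45.

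Many antigens with a CD number have a gene with another symbol, and 42 of 78 such genes on a list had a value. Of these 42, 12 rose, 5 fell and 25 did not pass, so 40.5% were called against 20.2% of all genes, and their median change was 0.11 against 0.02 over all genes. This list and that of partners below were drawn up with earlier results of these data known. Their shares therefore describe the lists and test nothing. SIRPB1, an activating relative of the CD47 receptor SIRPA, rose by 1.11, the ATP-hydrolysing enzyme gene ENTPD1 by 1.38 from a dim control value, the lipopolysaccharide receptor gene TLR4 by 1.25 and the interleukin 6 receptor gene IL6R by 0.75 (limma adjusted p = 0.000228, 0.000228, 0.000435 and 0.000913). C5AR1, the receptor of complement fragment C5a, fell by 1.66 to a dim value, FLT3, a progenitor receptor kinase, fell by 0.48, also to a dim value, ICAM3, an adhesion ligand of leukocyte integrins, fell by 0.46 and CSF3R, the granulocyte growth factor receptor, fell by 0.49 (limma adjusted p = 0.00013, 0.0102, 0.0141 and 0.0202). The CSF3R call was lost without control replicate 1 or 2 or RKIP shRNA replicate 1 (limma adjusted p = 0.0535 to 0.071). Of 18 measured adaptors and binding partners out of 24 listed, 3 rose, 2 fell and 13 did not pass, or 27.8% called, with a median change of 0.09. Besides TYROBP, the kinase genes SYK and LYN, which act below receptors with tyrosine motifs, rose by 0.59 and 0.48 (limma adjusted p = 0.0028 and 0.00365). LY96, the partner of TLR4 and CD14 in binding lipopolysaccharide, fell by 0.55 and was dim in both groups, and the kinase gene BTK fell by 0.28 (limma adjusted p = 0.00537 and 0.0226). The BTK call held without control replicate 3 and was lost in the other 5 fits that left out 1 array (limma adjusted p = 0.0548 to 0.0827).

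Cell type markers were read beside these changes, and their part in the results was not tested. Of 15 monocyte markers 9 were measured, 4 of them members here, and 5 were higher and 2 lower. That is 77.8% called, beside 20.2% of all genes. The 9 summed to 67.6 to 69.0 in RKIP shRNA and 62.7 to 63.6 in control arrays. Most of that gap lay in 2 genes, LYZ, which encodes lysozyme and had means of 10.09 in RKIP shRNA and 7.55 in control arrays (change 2.55, limma adjusted p = 1.6e-05), and TYROBP, given above, and the 2 that fell were CD86 and CD4. MPO, a myeloid granule peroxidase, stood at 13.03 ± 0.07 in RKIP shRNA and 12.76 ± 0.05 in control arrays, and SPI1, the myeloid transcription factor PU.1, at 9.27 ± 0.07 and 8.78 ± 0.09 (SD, n = 3 each), so both myeloid genes were well above the median of all rows, while CD14 was dim. MPO, called with a change of 0.26 (limma adjusted p = 0.0407), was not called whichever of the 6 arrays was dropped (0.066 to 0.115). Of 12 eosinophil, basophil and mast cell markers 7 were measured and 3 rose, or 42.9% called. The 7 summed to 41.1 to 42.2 in RKIP shRNA and 30.9 to 31.2 in control arrays. Most of that gap lay in CLC, at 11.55 against 6.12, and EPX, at 10.23 against 5.30. The remaining called gene rose by 0.52 (limma adjusted p = 0.028). The other 4 were not called, 3 of them dim in both groups, with changes from -0.33 (TPSAB1) to 0.23 (GATA1). Of 7 dendritic cell markers 3 were measured, all members and all dim, with sums of 10.3 to 11.4 in RKIP shRNA and 9.55 to 10.8 in control arrays, and CD1A was the called one, while CD209 changed by 0.16 and was not called. Of 4 measured B cell markers of 8, 1 fell: VPREB3, a component of pre-B cell receptor assembly, by 0.38 to a dim value (limma adjusted p = 0.035), a call that on leaving out 1 array held only without control replicate 2. The 4 summed to 18.3 to 18.6 in RKIP shRNA and 18.8 to 19.2 in control arrays, and PAX5, at 6.65 against 6.78, and BLK, at 4.49 against 4.45, were not called. Of 4 measured epithelial markers of 5, KRT18 was called at -0.29, a call that held when RKIP shRNA replicate 2 or 3 was dropped and was lost on dropping each of the other 4 arrays (limma adjusted p = 0.0511 to 0.0815), its other probe set gave 0.024, and KRT8 changed by -0.07, with sums of 21.0 to 21.3 and 21.0 to 21.6. No called gene was found by limma among 4 measured natural killer cell markers of 6 (sums of 16.5 to 17.5 and 16.2 to 17.1, NCR1 changing by -0.02 and PRF1 by -0.02) or 4 measured megakaryocyte and erythroid markers of 9 (sums of 16.8 to 18.2 and 16.6 to 17.4, PF4 changing by 0.06 and KLF1 by 0.24). In either list 0 genes had an unadjusted p under 0.05 by limma, beside 4806 of all 14884 genes.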

How the data were processed

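Total RNA, 250 ng per array, from 3 RKIP shRNA and 3 control samples was labelled with biotin and hybridised to Affymetrix Human Gene 2.0 ST arrays, as the labels' protocols and the design text state. The deposited table holds log2 values by the authors in 53617 rows, 1 column per array and 0 columns unused. The log2 scale was read from the range, 0.72 to 14.00. How the authors corrected background, summarised and normalised, and on which build, is not given in the sources used here. Scanner files and detection calls were not used here, so dim and absent genes cannot be told apart.

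GEO's platform annotation gave 1 symbol to 16098 rows, several to 0 and none to 37519. Per gene the row with the highest 6-array mean was kept, for 14884 genes, of which 779 had several rows. Members CD109 and CD177 had another row each, not called either.

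The comparison was fitted over all genes with limma (lmFit, eBayes; version 3.58.1, R 4.3.3), 3 arrays against 3, with no filter and no covariate. Tested on simulated data over 14884 genes, 200 of them changed, the same comparison recovered 37.3%, 89.6% and 97.0% of log2 changes of 0.5, 1 and 2, and 2.61% of its calls were false. The simulated noise was independent between genes, and far fewer genes changed than the 20.2% called in the data. These rates therefore need not hold for the data. It had 7.01 degrees of freedom, 3.01 of them from the prior. The number of arrays limits the precision. The labels name no batch. Replicate numbers did not pair the arrays: deviations of same-numbered arrays correlated at -0.02 to 0.02. No pair of arrays was a duplicate, with 58 to 144 identical rows. The genes named are all called members, the 8 uncalled with the highest mean, the 4 uncalled with the largest change, the member on either side of the threshold, up to 4 called genes per direction in the other lists, and the 2 of highest mean per marker list. CD9, CD14, CD96, CD276, LYZ, VPREB3, CD300E, CD300LD, CD300LG, SLAMF1, SLAMF7, LY9, TPSAB1 and GATA1 were added after the values were seen. Members and lists were chosen with earlier results of these data known. Alternatives are given in the closing section. Promoters are RefSeq's, GRCh38.p14. Figures were drawn with matplotlib 3.10.9.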

Additional observations from a re-analysis of the deposited data

Results flagged for a closer look

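The table also holds 37519 rows that carry no gene name, which no comparison above uses. By limma, with p adjusted over these rows alone, 615 of them were higher in RKIP shRNA arrays and 1093 were lower, so there is signal outside the named genes. Whether any of these rows reads a CD-numbered gene is not known here.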

How the results depend on the processing

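Of the 22 calls among CD-numbered genes, 16 held in every alternative that gave them a value: array weights, a replicate block, a trended and robust prior, centring on medians, quantile normalisation, the mean or second brightest of a gene's probe sets, leaving out dim genes, and leaving out each of 6 arrays. Each called member has 1 probe set. The alternatives by probe set thus left its values unchanged, altered only the fit around it and are no test of its call. CD300LB is among the 16 but was too dim to be tested where dim genes were left out. Counting the members by direction, and the other CD antigens and partners, under these alternatives was added after seeing the data. The number of called members was 16 to 22 on leaving out 1 array (10 to 11 higher and 6 to 11 lower), and 18 with the replicate block, where CD1A, CD5, CD5L and CD99 lost their calls (adjusted p = 0.102, 0.0751, 0.0571 and 0.0812). CD47 and CD69 passed, as lower, with quantile normalisation, a trended and robust prior, array weights or without dim genes, and CD58 with a trended and robust prior. At an adjusted p under 0.01 there were 12 called members, 3 of them lower, with 10 other CD antigens and 1472 genes in all. With at least 1.5-fold required there were 9 members, 6 higher and 3 lower, with 8 other CD antigens, 2 partners and 887 genes in all. Both counts fall because the threshold is stricter. The count over all genes was 1987 to 2397 on leaving out 1 array, lowest without control replicate 2, and 2142 with the replicate block. Other CD antigens called ranged from 12 to 17 and partners from 4 to 5 on leaving out 1 array. PEBP1 ranged from -1.54 to -1.41. CD209, which was not called, changed sign without control replicate 2 (-0.053) and without RKIP shRNA replicate 1 (-0.022), within a range of -0.053 to 0.50 on leaving out 1 array. In all, 16 of the 47 uncalled members and 0 of the 22 called ones changed sign on leaving out 1 array, so those 16 have no settled direction. Of those named, CD9 did without control replicate 1 (-0.023), CD14 without RKIP shRNA replicate 1 (0.067) and CD276 without control replicate 1 (-0.023) or RKIP shRNA replicate 3 (-0.032), within ranges of -0.023 to 0.15, -0.20 to 0.067 and -0.032 to 0.52. CD300E and CD300LG also changed sign on leaving out 1 array, within ranges of -0.16 to 0.030 and -0.057 to 0.10. Alternatives for CD9, CD14, CD276, CD96 and the named genes that are no members were also added after seeing the data. Of 20 such genes that were called, 15 kept their calls throughout, and CSF3R, BTK, KRT18, MPO and VPREB3 did not. The second probe set of KRT18 gave 0.024. Among uncalled markers, PF4 changed sign without control replicate 2 (-0.022) or RKIP shRNA replicate 1 (-0.020), NCR1 with quantile normalisation (0.016) and without control replicate 3 (0.15), RKIP shRNA replicate 1 (0.0043) or replicate 3 (0.093), and PRF1 without control replicate 2 (0.094), RKIP shRNA replicate 1 (0.057) or replicate 3 (0.0089). On leaving out 1 array PF4 ranged from -0.022 to 0.20, NCR1 from -0.18 to 0.15 and PRF1 from -0.11 to 0.094. The cause of these changes was not tested. Background correction was not varied, since the table holds processed values.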
